A study of Mus musculus with 8 samples.

Results

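The Dlk1-Dio3 region of mouse chromosome 12 is an imprinted domain, in which the parental origin of an allele decides which of its genes are expressed. Its protein-coding genes Dlk1, Rtl1 and Dio3 are transcribed from the paternal allele, and its long noncoding RNAs Meg3, Rian and Mirg, together with a large set of miRNAs, from the maternal allele. The miRNAs are cut from hairpins, each of which can give a mature miRNA from its 5′ arm (5p) and from its 3′ arm (3p), and a mature miRNA recognises mRNAs mainly through its seed, bases 2 to 8. In rodent neurons, transcription of the distal hairpins is driven by the activity-regulated factor Mef2, and miR-134 is known to repress Limk1 and Pum2, which act on dendritic spines and dendrite growth.

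The members were all mature miRNAs whose deposited coordinates on chromosome 12 (mm9) start between bases 110500000 and 111500000, without use of any measured level. This gave 110 of the 1251 miRNAs in the deposited table, from 57 hairpins, 53 of which were listed with both arms. At least 1 tag was found for 97 members, and 13 members had 0 tags in all libraries, among them miR-1906, the first member by position. After a filter on low counts, 70 members remained among 422 miRNAs tested. All groups were hippocampus of C57BL/6 mice: 12 h after status epilepticus (SE 12 h), 10 d after it (SE 10 d), 6 wk after it (SE 6 wk), and control animals, which the labels place at time zero. Status epilepticus is a seizure that does not stop on its own. Each group had 2 small RNA libraries. The design text describes pools of cDNA from 2 animals, so that a library stands for a pool, but it does so for the mRNA libraries. How the small RNA libraries were made, how status epilepticus was induced, and the animals' age and sex are not stated in the labels or design text. Because nothing ties these 8 libraries to separate pools, p-values measure only the spread between libraries.

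Total tags ran from 545672 to 3325374 per library, and a count of 3 tags, the limit that a count of 0 allows, corresponded to 0.891 to 5.20 CPM. CPM, the counts scaled to a common library size with TMM factors, is the unit of these limits and of all levels below, and log2 fold changes, their standard errors (SE of the estimate) and adjusted p-values come from edgeR's quasi-likelihood test over all 422 miRNAs, with a call at an adjusted p under 0.05. In bulk tissue, fewer cells of a type and less RNA per cell cannot be told apart. Of the lists of miRNAs associated with cell types, 4 held miRNAs called against control, all at SE 6 wk or SE 10 d. Whether the listed miRNAs came only from those cells was not tested. The summed level of the list for reactive glia was 39417 and 40923 CPM at SE 6 wk, against 21225 and 20263 CPM in control, with 3 of its 5 tested miRNAs called higher (miR-146a-5p, miR-21a-5p and miR-22-3p). The summed level of the myeloid list was 1131 and 1388 CPM at SE 6 wk, against 305 and 365 CPM in control, with 2 of its 3 tested miRNAs called higher (miR-142-5p and miR-155-5p). The neuronal list gave 38264 and 39143 CPM at SE 6 wk, against 41695 and 44629 CPM in control, with 2 of 10 called lower (miR-128-1-5p and miR-138-1-3p). The choroid plexus list differed widely within groups, with 5784 and 12362 CPM at SE 10 d and 5367 and 8870 CPM at SE 6 wk, against 7510 and 9140 CPM in control, and 1 of its 2 tested miRNAs, miR-211-5p, was called higher at SE 6 wk (log2 fold change 4.01, edgeR adjusted p = 0.00142). Of the lists for oligodendrocytes, endothelium and blood none had a miRNA called against control, while 1 oligodendrocyte miRNA was called higher and 1 endothelial miRNA lower at SE 6 wk than at SE 12 h. The oligodendrocyte list held products of miR-219 only, 2 of them tested. The part of these changes in the results on the cluster was not tested.

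The members whose levels the results turn on are printed here 5′ to 3′, with the seed in capitals. RefSeq mature sequences (GRCm38.p6) were found for 102 of the 110 members, and each of these equals the mm9 genome at the deposited coordinates. The sequence of miR-127-5p, which was called between SE 6 wk and SE 12 h, is not printed. Listed are the most abundant member, members of hairpins with a called arm, and miR-134-5p, which was not called in any comparison.
miR-127-3p: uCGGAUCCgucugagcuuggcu
miR-431-5p: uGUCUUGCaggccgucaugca
miR-431-3p: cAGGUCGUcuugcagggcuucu
miR-434-5p: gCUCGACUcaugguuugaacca
miR-434-3p: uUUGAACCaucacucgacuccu
miR-667-3p: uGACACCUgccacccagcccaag
miR-540-3p: aGGUCAGAggucgauccugg
miR-376b-5p: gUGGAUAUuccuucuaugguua
miR-380-3p: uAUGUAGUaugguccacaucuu
miR-134-5p: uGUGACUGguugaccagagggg

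The cluster is not a seed family. The 102 sequences held 95 distinct seeds, and 7 seeds were shared, each by 2 members. The hairpin of miR-379, which is described below for its 5′ arm, shares both of its seeds with another member, and these pairs are shown to let the shared capitals be compared.
miR-379-5p: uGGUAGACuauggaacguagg
miR-1193-5p: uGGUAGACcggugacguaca
miR-379-3p: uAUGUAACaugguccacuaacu
miR-411-3p: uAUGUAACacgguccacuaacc

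miR-1193-5p had 10 tags over the 8 libraries, against 18367 for miR-379-5p, so the seed GGUAGAC came almost wholly from miR-379-5p. The seed AUGUAAC was carried by 1552 tags of miR-379-3p and 2572 tags of miR-411-3p.

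The cluster held 21.0 to 25.5% of all miRNA tags, and its share was lower at the later times. It made up 24.9 and 25.1% of tags at SE 12 h, 22.1 and 22.4% at SE 10 d, and 22.6 and 21.0% at SE 6 wk, against 25.5 and 23.9% in control. The SE 10 d and SE 6 wk libraries all lay below both control libraries, and the SE 12 h libraries lay between them. The mean share was 25.0 ± 0.137% at SE 12 h, 22.3 ± 0.225% at SE 10 d and 21.8 ± 1.13% at SE 6 wk, against 24.7 ± 1.11% in control (SD, n = 2 each). The differences from control were 0.351 percentage points at SE 12 h (exact permutation test, two-sided, p = 1; −0.436 points without control library 8), −2.39 points at SE 10 d (exact permutation p = 0.3333) and −2.90 points at SE 6 wk (exact permutation p = 0.3333). With 2 libraries against 2 the smallest possible p is 0.3333, so this design cannot pass a threshold of 0.05. The Wilson 95% interval of a single library's share was narrow, for example 22.3 to 22.6% in the shallowest library, SE 10 d library 4, and covers counting error only.

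miR-127-3p, which lies antisense to Rtl1 and is perfectly complementary to its mRNA, was the most abundant miRNA of all in each of the 8 libraries and set most of this share. It made up 19.5 and 20.1% of all tags at SE 12 h, 17.5 and 17.4% at SE 10 d, and 17.8 and 16.5% at SE 6 wk, against 20.5 and 19.2% in control. Within the cluster it accounted for 77.6 to 80.5% of tags. Of the tags that were not miR-127-3p, the other members held 6.79 and 6.34% at SE 12 h, 5.67 and 6.10% at SE 10 d, and 5.79 and 5.40% at SE 6 wk, against 6.26 and 5.80% in control. Without miR-127-3p both SE 12 h libraries lay above both control libraries. The difference from control was −0.149 points at SE 10 d, where the libraries overlapped those of control, and −0.437 points at SE 6 wk. Both SE 6 wk libraries lay below both control libraries, though library 5, at 5.79%, was only just under the 5.80% of control library 8.

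**Figure D1:**
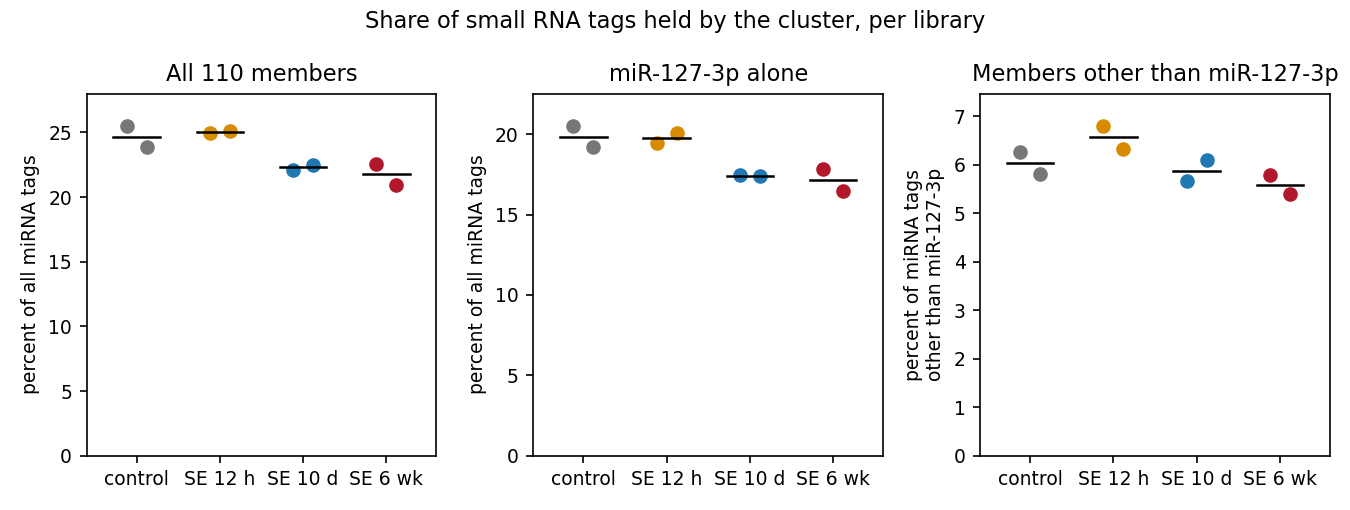
Share of small RNA tags per library (points) with group means (lines), for all 110 members, for miR-127-3p alone and for the other members as a percent of tags that are not miR-127-3p; the y axes are in percent and start at 0. The SE 10 d and SE 6 wk libraries lie at 21.0 to 22.6% for all members, below both control libraries. For the other members the SE 12 h libraries, at 6.79 and 6.34%, lie above both control libraries, at 6.26 and 5.80%. The SE 6 wk libraries, at 5.79 and 5.40%, lie below both, and the SE 10 d libraries overlap with control.

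After TMM scaling, miR-127-3p stood at 191370 and 198165 CPM at SE 12 h, 172635 and 164644 CPM at SE 10 d, and 171661 and 160125 CPM at SE 6 wk, against 220066 and 210158 CPM in control. All 6 libraries after status epilepticus lay below both control libraries. The log2 fold change was −0.14 ± 0.11 at SE 12 h (edgeR adjusted p = 0.479), −0.35 ± 0.11 at SE 10 d (adjusted p = 0.106) and −0.37 ± 0.11 at SE 6 wk (adjusted p = 0.0537), so none of the 3 was called. At SE 6 wk it passed with DESeq2 (adjusted p = 0.0327), with TMM factors computed without the members (edgeR adjusted p = 0.0214) and among miRNAs with a mean of at least 10 CPM (edgeR adjusted p = 0.0266). The next most abundant members were miR-434-3p, miR-541-5p, miR-410-3p, miR-381-3p and miR-300-3p, with means over the 8 libraries of 12666, 10689, 5553, 4112 and 3105 CPM. These 6 members together gave 94.5% of the cluster's tags, and the median tested member was far below them. The last member by position, miR-3072-3p, had only 106 tags in all, and its log2 fold changes of −1.22, −0.91 and −0.74 carried standard errors of 0.43 to 0.46.

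The question of each comparison with control is how hippocampal miRNAs stood at a given time after status epilepticus. At SE 12 h and at SE 10 d no cluster member was called by edgeR, and at SE 6 wk 3 of 70 were called, 1 higher and 2 lower. Over all 422 miRNAs the percent called was 0.474 at SE 12 h, 0.948 at SE 10 d and 10.4 at SE 6 wk, so the cluster's 3 of 70 at SE 6 wk was a smaller share than the background. An unadjusted edgeR p under 0.05 was found for 10 of the 70 members at SE 12 h, 13 at SE 10 d and 12 at SE 6 wk. Over all 422 miRNAs it was found for 84, 85 and 116, or 19.9, 20.1 and 27.5 percent. DESeq2 called 1 member at SE 12 h and 1 at SE 10 d, and its share over all miRNAs is not given here. Most members moved little: 59, 58 and 58 of 70 had a log2 fold change within 0.5 of 0. The median log2 fold change of the members was −0.01 at SE 12 h, −0.17 at SE 10 d and −0.18 at SE 6 wk, beside −0.04, −0.05 and −0.04 over all miRNAs tested. Negative values were found for 36, 52 and 49 of the 70 members (51.4, 74.3 and 70.0 percent), beside 55.7, 55.5 and 53.6 percent of all miRNAs tested. Scaling by library totals in place of TMM raised the median of all miRNAs by 0.14 to 0.16, to 0.10, 0.11 and 0.12. The members' medians then were 0.13, −0.01 and −0.02, with 23, 35 and 38 members negative. How many members fell below 0 therefore depends on the scale. On both scales the members' median lay below that of all miRNAs at SE 10 d and SE 6 wk.

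miR-431-5p was the member that changed most clearly. It lies at 110828669 to 110828689 (mm9), in an exon of Rtl1 on the opposite strand, in the same block as miR-433, miR-127 and miR-434. Its levels were 78.0 and 76.6 CPM at SE 12 h, 79.4 and 88.4 CPM at SE 10 d, and 192.3 and 172.7 CPM at SE 6 wk, against 86.4 and 87.6 CPM in control. Both SE 6 wk libraries stood at about the same high level, and the other 6 libraries formed a narrow low range that did not overlap with them. These levels rest on 296 and 332 tags at SE 6 wk, against 89 and 132 tags in control. The mean was 182.5 ± 13.9 CPM at SE 6 wk, against 87.0 ± 0.845 CPM in control (SD, n = 2 each), a 2.10-fold rise with a log2 fold change of 1.07 ± 0.17 (edgeR adjusted p = 0.0027). It was also higher at SE 6 wk than at SE 10 d (log2 fold change 1.13 ± 0.17, edgeR adjusted p = 0.00849) and than at SE 12 h (1.24 ± 0.17, adjusted p = 0.000798). The rise over control and over SE 12 h was called with any library left out, with adjusted p-values from 0.00297 to 0.0471 for the comparison with control. The call against SE 10 d was lost without SE 10 d library 3 (adjusted p = 0.0923) or SE 6 wk library 5 (adjusted p = 0.136).

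The 3′ arm of the same hairpin did not show this. miR-431-3p had 431.6 and 418.2 CPM at SE 12 h, 369.2 and 325.7 CPM at SE 10 d, and 439.8 and 344.3 CPM at SE 6 wk, against 393.1 and 330.4 CPM in control. The SE 6 wk and control libraries overlapped, with a log2 fold change of 0.12 ± 0.16 (edgeR adjusted p = 0.67). The 5′ arm therefore made up 30.4 and 33.4% of the hairpin's tags at SE 6 wk, against 18.0 and 21.0% in control, with 15.3 to 21.3% at the other times. The difference between the arms was not tested. In both groups the 3′ arm remained the more abundant product.

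Both called falls at SE 6 wk were smaller and sat near the threshold. miR-667-3p, from the distal block, stood at 113.7 and 110.3 CPM at SE 6 wk, against 160.2 and 183.8 CPM in control, without overlap, a log2 fold change of −0.62 ± 0.17 (edgeR adjusted p = 0.0444). miR-434-5p, the 5′ arm of the hairpin beside miR-127, stood at 1805 and 1900 CPM at SE 6 wk, against 2392 and 2592 CPM in control, a log2 fold change of −0.43 ± 0.12 (adjusted p = 0.0444). Leaving out control library 7 or 8, SE 12 h library 2, or SE 6 wk library 5 or 6 ended both calls, and leaving out SE 12 h library 1 ended that of miR-667-3p. Their adjusted p-values with a library left out ran from 0.0414 to 0.189 for miR-667-3p and from 0.0318 to 0.186 for miR-434-5p. Scaling by library totals also ended both calls, with log2 fold changes of −0.46 for miR-667-3p (edgeR adjusted p = 0.108) and −0.26 for miR-434-5p (adjusted p = 0.199), as did testing without a filter (edgeR adjusted p = 0.0617 and 0.0709). The other arm, miR-434-3p, had 10171 and 9236 CPM at SE 6 wk, against 14757 and 11862 CPM in control (log2 fold change −0.46 ± 0.13, edgeR adjusted p = 0.0575), and was not called. It passed without control library 8 (edgeR adjusted p = 0.0297), without SE 10 d library 3 (0.0412) or 4 (0.0464), and with DESeq2 (adjusted p = 0.0327). DESeq2 did not call miR-667-3p (adjusted p = 0.0621). Of the 8 tested members antisense to Rtl1, 6 had a negative log2 fold change at SE 6 wk, and the 2 positive ones were the arms of miR-431.

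**Figure D2:**
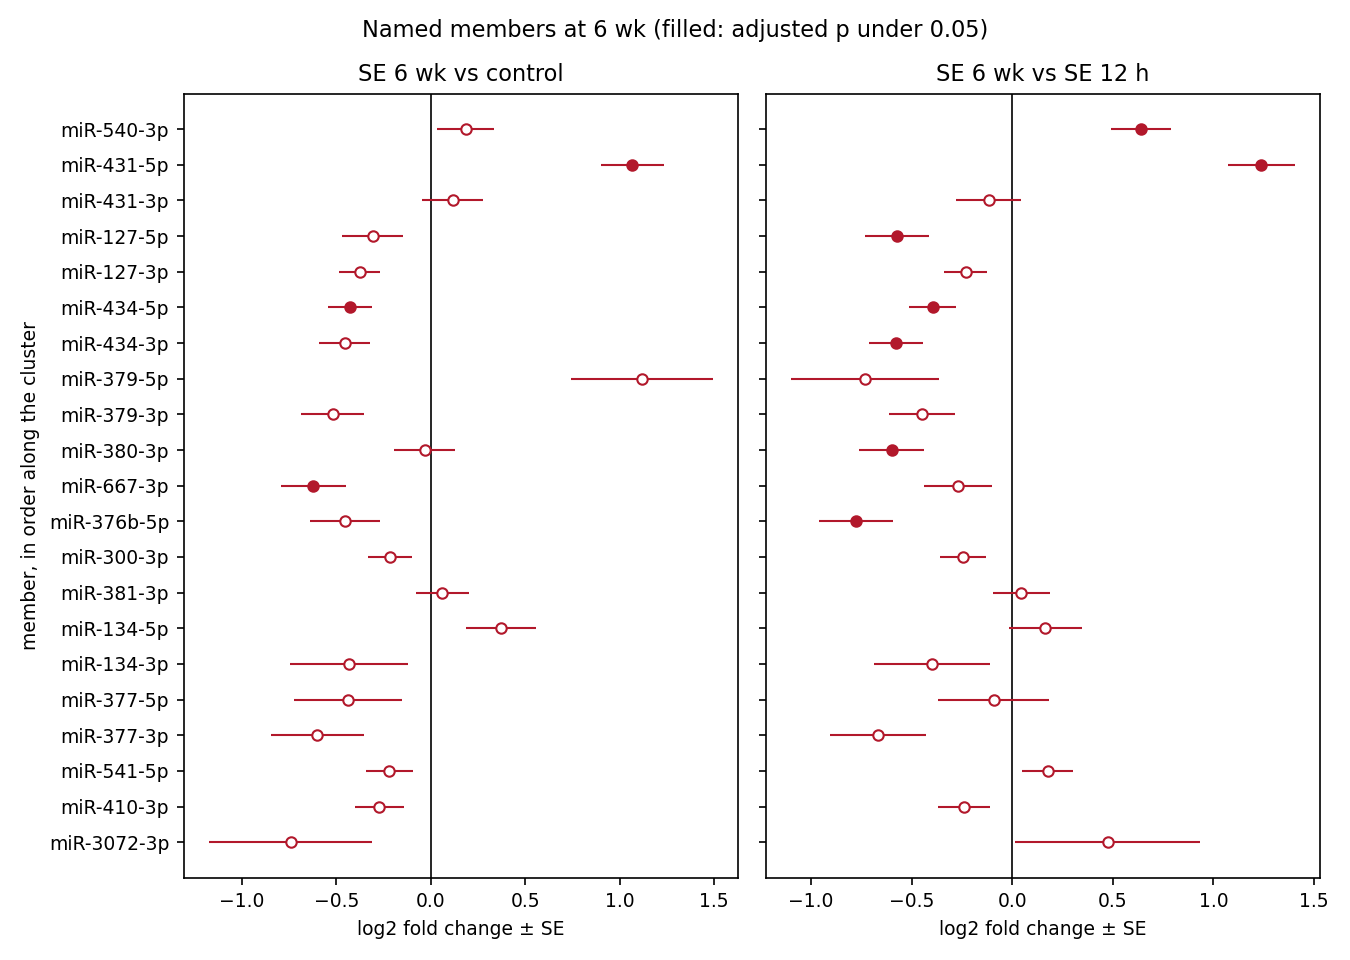
Log2 fold change with its standard error (horizontal bars) of the named members, in their order along the cluster, for SE 6 wk against control on the left and SE 6 wk against SE 12 h on the right; filled points have an adjusted p under 0.05. miR-431-5p lies far to the right in both panels, at 1.07 and 1.24; miR-379-5p, at 1.12 on the left with a wide bar and an open point, is the other named member above 1, and the rest lie within 1 of 0.

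miR-379-5p, the first miRNA of the distal block and the one that names the miR-379 to miR-410 group, had large fold changes that missed the threshold. Its levels were 1820 and 1873 CPM at SE 12 h, 1700 and 1966 CPM at SE 10 d, and 1635 and 591.4 CPM at SE 6 wk, against 408.6 and 613.7 CPM in control. The 4 libraries of SE 12 h and SE 10 d lay far above both control libraries, whereas SE 6 wk library 6 fell within the control range and SE 6 wk library 5 did not. The log2 fold change was 1.85 ± 0.38 at SE 12 h (edgeR adjusted p = 0.0725), 1.84 ± 0.38 at SE 10 d (adjusted p = 0.0605) and 1.12 ± 0.38 at SE 6 wk (adjusted p = 0.088). In the test over all 4 groups at once miR-379-5p was called (edgeR adjusted p = 0.0318), as were miR-431-5p (adjusted p = 0.00159) and miR-540-3p (adjusted p = 0.047), 3 of 70 members beside 15.4 percent of all miRNAs. Without control library 7 that call of miR-379-5p was lost (adjusted p = 0.0897), and that of miR-540-3p was lost without any 1 of the 8 libraries.

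The spread between the SE 6 wk libraries enters every comparison through the shared error estimate. Without SE 6 wk library 6, miR-379-5p was called higher than control at SE 12 h (log2 fold change 1.88, edgeR adjusted p = 0.00148), at SE 10 d (1.84, adjusted p = 0.000439) and at SE 6 wk (1.69, adjusted p = 0.0017). Without SE 6 wk library 5 it was called at SE 12 h (adjusted p = 0.00315) and SE 10 d (adjusted p = 0.000913), and the log2 fold change at SE 6 wk was 0.13. DESeq2 called it at SE 12 h (adjusted p = 0.0167) and SE 10 d (adjusted p = 0.0192), and so did edgeR with library totals (adjusted p = 0.039 and 0.0335). It was also called at SE 10 d without SE 12 h library 1 (adjusted p = 0.0288) or 2 (adjusted p = 0.0291).

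The opposite arm went the other way in value. miR-379-3p had 132.7 and 127.4 CPM at SE 12 h, 109.1 and 93.6 CPM at SE 10 d, and 96.1 and 94.1 CPM at SE 6 wk, against 141.7 and 131.4 CPM in control, with log2 fold changes of −0.07, −0.42 and −0.52, none of them called. The 5′ arm gave 93.2 and 93.6% of the hairpin's tags at SE 12 h, 94.0 and 95.5% at SE 10 d, and 94.4 and 86.3% at SE 6 wk, against 74.3 and 82.4% in control. All 6 libraries after status epilepticus had a higher 5′ share than both control libraries. miR-411-3p, which has the seed of miR-379-3p, had log2 fold changes of −0.05, −0.33 and −0.33 and was not called.

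**Figure D3:**
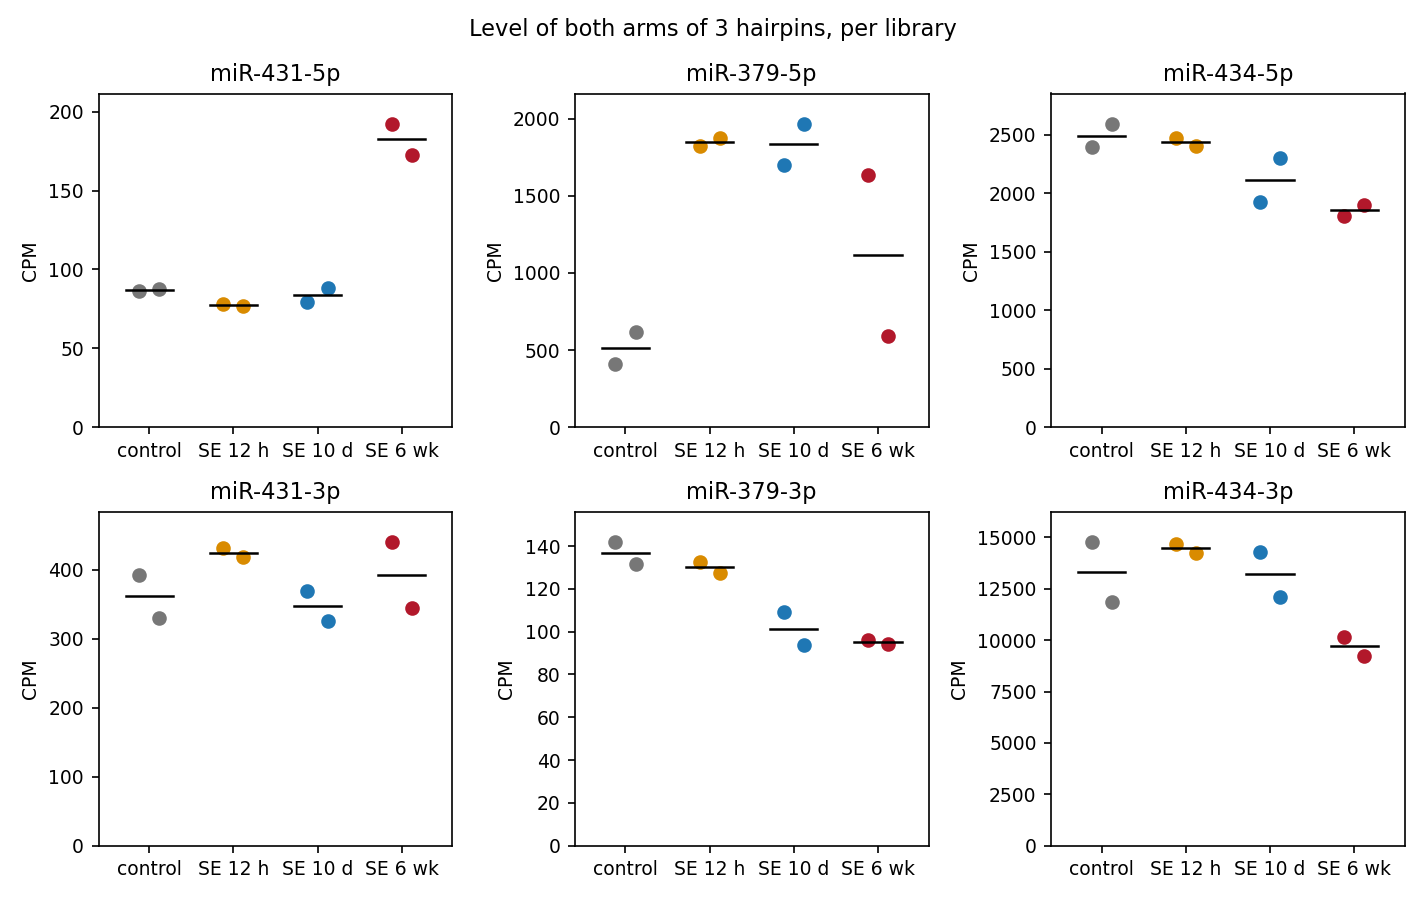
CPM per library (points) with group means (lines) for both arms of the hairpins of miR-431, miR-379 and miR-434; all y axes are linear and start at 0. miR-431-5p is high only at SE 6 wk, miR-379-5p is high at SE 12 h and SE 10 d with SE 6 wk libraries at 1635 and 591.4 CPM, and the 3′ arms of both hairpins do not follow.

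Both arms passed the filter in 25 hairpins, of which 13 gave more 3p and 12 more 5p tags. miR-127 was the most one-sided, with 994 tags of 3p for each tag of 5p, while miR-770 was close to even at 48.0% 5p. The median size of the difference between the arms' log2 fold changes against control was 0.49 at SE 12 h, 0.48 at SE 10 d and 0.30 at SE 6 wk. miR-379 had the largest difference of the 25 at each of the 3 times, at 1.92, 2.25 and 1.64, and miR-431 was second at SE 6 wk, at 0.95. miR-377, the third hairpin named for its arms, differed by −0.98 at SE 10 d, but its 5′ arm had only 180 tags in all. These differences are descriptions, and arms with few tags, such as those of miR-376a and miR-299a, spread widely between libraries of the same group.

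**Figure D4:**
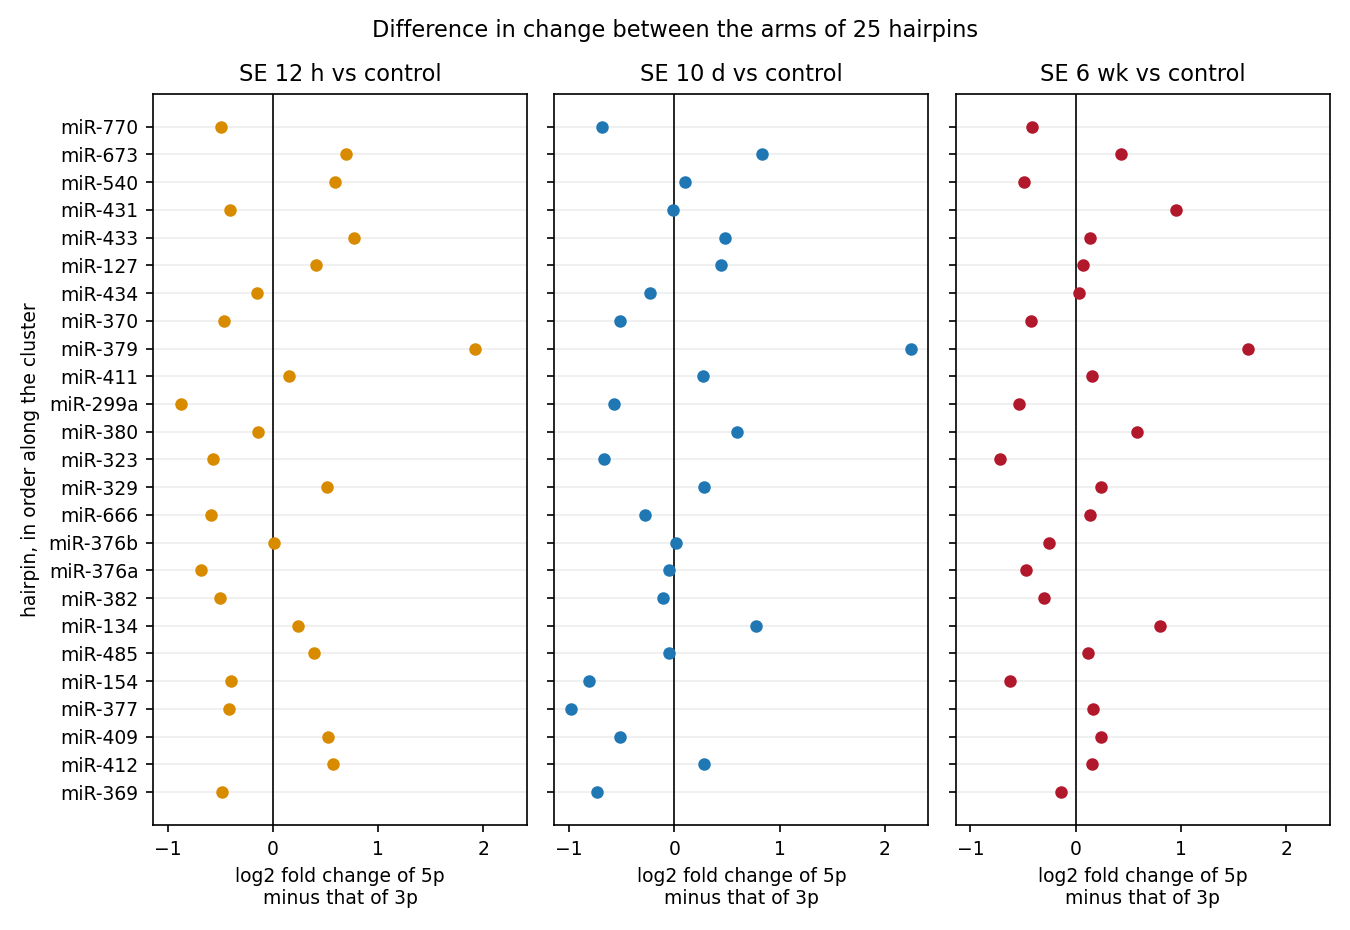
Log2 fold change of the 5′ arm minus that of the 3′ arm against control, for the 25 hairpins with both arms tested, in their order along the cluster and in a panel for each time. miR-379 lies farthest to the right in all 3 panels, at 1.92, 2.25 and 1.64, and miR-431 lies at 0.95 at SE 6 wk only.

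The times after status epilepticus were also compared with each other. Between SE 6 wk and SE 12 h 7 of 70 members were called, 2 higher and 5 lower, beside 21.8 percent of all miRNAs. Between SE 6 wk and SE 10 d 1 member was called, miR-431-5p, beside 1.66 percent of all. Between SE 10 d and SE 12 h edgeR called no member, beside 2.84 percent of all, and DESeq2 called none. An unadjusted edgeR p under 0.05 was found there for 6 of 70 members, beside 20.9 percent of all miRNAs. Higher at SE 6 wk than at SE 12 h, apart from miR-431-5p, was miR-540-3p, with 178.7 and 190.4 CPM at SE 6 wk, against 115.5 and 120.9 CPM at SE 12 h (log2 fold change 0.64 ± 0.15, edgeR adjusted p = 0.0147). Its SE 6 wk and control levels lay closer together, since control held 165.0 and 159.9 CPM.

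The 5 members that were lower at SE 6 wk than at SE 12 h came from both the distal and the proximal block of the cluster. miR-376b-5p had 73.4 and 71.3 CPM at SE 6 wk, against 126.7 and 121.5 CPM at SE 12 h (log2 fold change −0.78 ± 0.18, edgeR adjusted p = 0.0147). miR-380-3p had 332.6 and 258.5 CPM at SE 6 wk, against 445.8 and 449.1 CPM at SE 12 h (−0.60 ± 0.16, adjusted p = 0.0257). For both, the SE 12 h libraries were the highest of the 8, and neither was called against control. In the proximal block, miR-434-3p (−0.58 ± 0.13, edgeR adjusted p = 0.0147), miR-127-5p (−0.57 ± 0.16, adjusted p = 0.0324) and miR-434-5p (−0.40 ± 0.12, adjusted p = 0.0388) were lower. Leaving out either SE 12 h library left only miR-431-5p called, and leaving out SE 6 wk library 6 left miR-431-5p and miR-377-3p. Without SE 6 wk library 5 the calls of miR-540-3p, miR-376b-5p, miR-127-5p and miR-434-5p were lost, with edgeR adjusted p-values from 0.0541 to 0.101.

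miR-134 is the member of the cluster best known in epilepsy models, in which silencing it lowers seizures in rodents. miR-134-5p had 84.1 and 65.0 CPM at SE 12 h, 96.3 and 95.3 CPM at SE 10 d, and 85.8 and 79.6 CPM at SE 6 wk, against 67.0 and 61.0 CPM in control. The SE 10 d and SE 6 wk libraries lay above both control libraries, and those of SE 12 h overlapped with control. Its log2 fold change was 0.21 ± 0.19 at SE 12 h (edgeR adjusted p = 0.582), 0.59 ± 0.19 at SE 10 d (adjusted p = 0.116) and 0.37 ± 0.19 at SE 6 wk (adjusted p = 0.235), and it was not called at any time. miR-134-3p, with 155 tags in all, had values of −0.03, −0.20 and −0.43 with standard errors of 0.29 to 0.32.

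The changes were also set out by position along the cluster. The members fall into a proximal block from miR-1906 to miR-370-3p (34 members over 73.7 kb, 19 tested), the lone miR-882, which had 0 tags, and a distal block from miR-379-5p to miR-3072-3p (75 members over 38.9 kb, 51 tested). The proximal block held 17.9 to 22.3% of all tags per library and the distal block 2.82 to 3.47%. The median log2 fold change of the proximal and the distal block was −0.02 and 0.02 at SE 12 h, −0.14 and −0.17 at SE 10 d, and −0.22 and −0.17 at SE 6 wk. At SE 12 h the order of these medians turned among members with a mean of at least 10 CPM. Across the 70 tested members Spearman's rho between position and log2 fold change was −0.01, −0.05 and −0.08 at these times, as a description over miRNAs that share libraries and, within a hairpin, a precursor. Neighbouring members could differ widely: the arms of miR-379 lie within the same hairpin and differed by 2.25 on the log2 scale at SE 10 d.

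**Figure D5:**
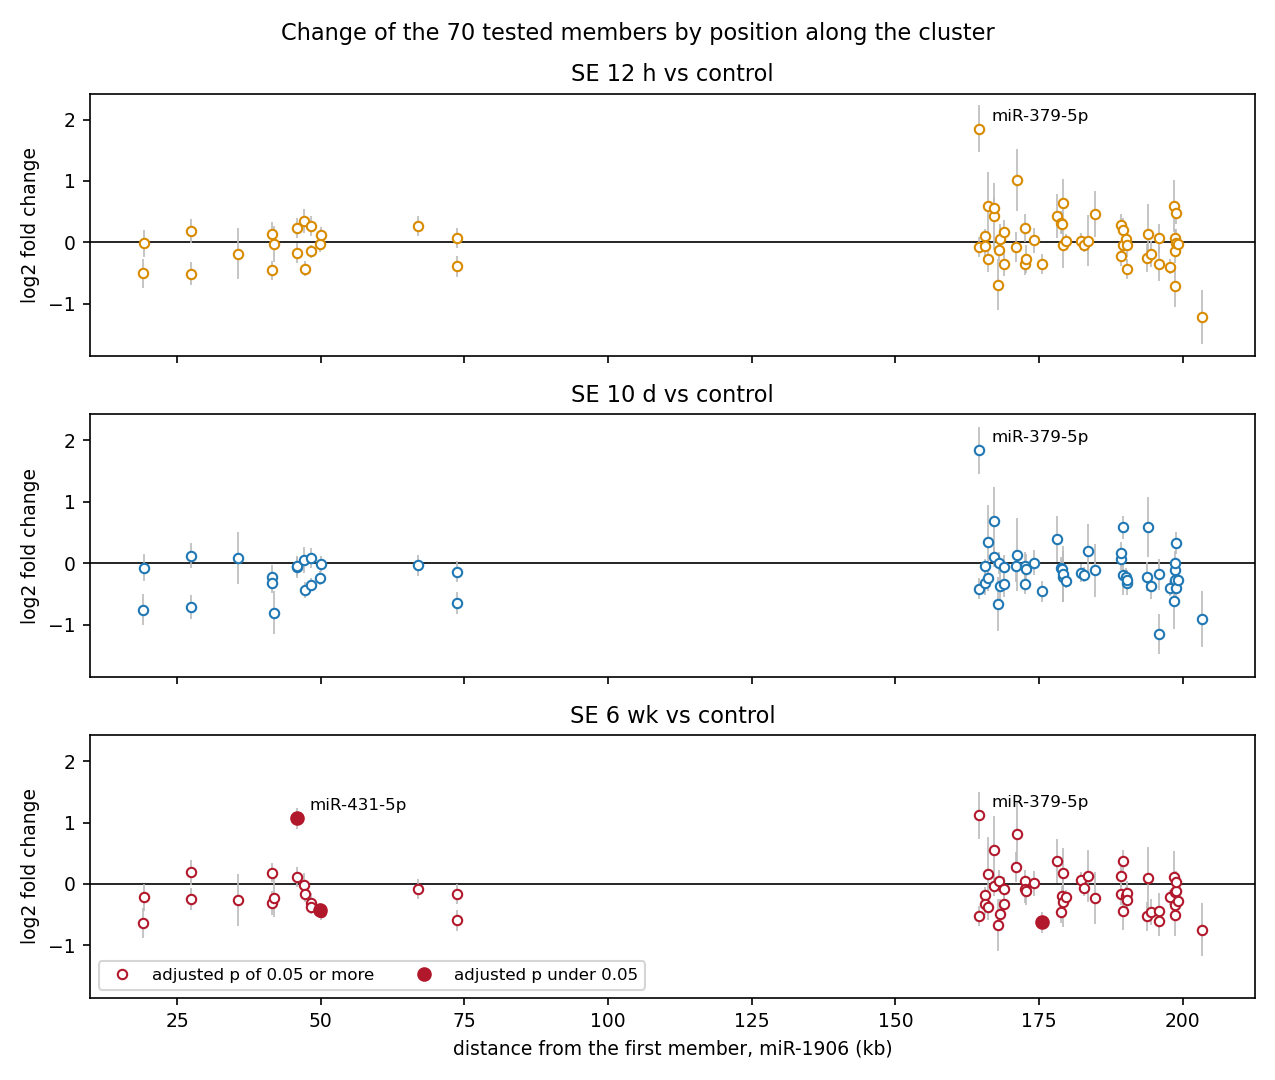
Log2 fold change against control of the 70 tested members (points, with standard errors) by distance from the first member, miR-1906, in kb, in a panel for each time; filled points have an adjusted p under 0.05. The points of the proximal block on the left and of the distal block on the right scatter around similar values, with miR-379-5p at 1.85, 1.84 and 1.12 and miR-431-5p at 1.07 at SE 6 wk standing above them.

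By the gene annotation of the mm9 assembly (GENCODE vM1), 11 members lie within the exon of Rtl1, and these gave 86.2% of the cluster's tags. They are antisense to Rtl1 except for the arms of miR-3071, which lie on its strand and had 0 tags. A further 19 members lie in Mirg, 6 in Rian and 3 in Meg3, with 7.50, 0.278 and 0.0359% of the cluster's tags, and 71 lie in no annotated gene. Median log2 fold changes at SE 6 wk were −0.23 for the 8 tested members antisense to Rtl1, −0.31 for 14 in Mirg, −0.17 for 3 in Rian and −0.43 for 2 in Meg3. They were −0.15 for 43 in no annotated gene, beside −0.04 over all miRNAs. With so few members in Rian and Meg3, their medians describe only the hairpins of miR-341 and miR-370 in Rian and that of miR-770 in Meg3.

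A pair of hairpins in the cluster was listed only on the strand opposite to the rest. miR-3071 overlaps Mir136 and miR-3544 overlaps Mir337 in the annotation, and all 4 of their arms had 0 or 1 match to the mature miRNA. miR-136 and miR-337 themselves were not analysed here.

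The mRNA of genes in and beside the domain was read from the authors' deposited table, which holds 1 averaged fold and 1 averaged q-value for each transcript at each time and writes falls as negative folds. A transcript was called here at a mean q under 0.05 with a fold of at least 1 in size, which held for 17.6, 19.1 and 21.6 percent of genes with a fold other than 0 at SE 12 h, SE 10 d and SE 6 wk, with the first listed transcript of each gene counted. In the authors' deposited table Dlk1, a transmembrane relative of Notch ligands, Rtl1, the retrotransposon-derived gene opposite miR-127 and miR-431, and Dio3, which inactivates thyroid hormone, were not called at any time. The fold of Rtl1 in the authors' deposited table was −1.42 at SE 12 h (q = 0.317), 1.46 at SE 10 d (q = 0.26) and 4.91 at SE 6 wk (q = 0.151). Begain, a postsynaptic protein gene proximal to Dlk1, was called lower at SE 12 h (fold −2.04, q = 1.93e-05) and at SE 6 wk (fold −316, q = 9.82e-16) in the authors' deposited table, and its neighbour Wdr25 at SE 10 d (fold −26.8, q = 8.08e-08) and SE 6 wk (fold −73.4, q = 3.75e-05). The levels behind these folds were not analysed here, and whether they rest on few reads was not examined, so the large negative values are given as deposited and not as sizes of a change. On the other side of the domain lies Ppp2r5c, the gene of a regulatory subunit of protein phosphatase 2A. In the authors' deposited table its transcripts had folds of −1.72 to −3.76 at SE 6 wk, 3 of 4 of them called. At SE 10 d the folds there were −3.96 to −5.53, all called but that of −3.96 (q = 0.153). At SE 12 h they ran from −1.21 to 0.684, and only that of −1.15 was called (q = 0.0114). Meg3, Rian and Mirg were not analysed here.

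Of the 6 genes known as targets of cluster miRNAs, the authors' deposited table called Pum2, a translational repressor and target of miR-134, higher at SE 10 d (fold 2.08 to 2.10 over 5 transcripts) and at SE 6 wk (fold 1.95 to 1.96). Creb1, the activity-dependent transcription factor, was called higher at SE 6 wk in the authors' deposited table (fold 1.96, q = 0.00322). Mef2a, listed both as a target and as a regulator of the cluster, was called higher at SE 12 h in the authors' deposited table (fold 2.91, q = 0.0465). Its fold there was −0.846 at SE 10 d (q = 0.000325), under 1 in size, and 3.30 at SE 6 wk (q = 0.241). Limk1, the actin-regulating kinase that is a target of miR-134 in rat neurons, had folds of 3.31, 2.52 and 1.67 in the authors' deposited table and was not called. Sv2a, a synaptic vesicle protein, had folds between −0.894 and −0.218 there, under 1 in size at each time. It was therefore not called, although its q at SE 6 wk was 5.24e-05 (fold −0.218). The other regulators listed, Mef2c and Mef2d, were not called at any time in the authors' deposited table.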

How the data were processed

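Per the file headers, the authors deposited whole-number counts of tags matching each mature miRNA in 8 libraries; the steps behind them are not stated in the labels or headers. The deposited signed folds and q-values of mRNA come from reads mapped with Bowtie to mm9, per the labels and design text; how the authors computed these folds (unit other) is not stated. The time in a column's name gave its group, and 24 other per-sample columns were left unused. Members and lists were chosen with earlier results of these data known. Counts, 1 row per miRNA name, entered edgeR 4.0.16 (filterByExpr, TMM, glmQLFit and glmQLFTest, 4 group means in 1 fit, Benjamini-Hochberg over 422 miRNAs); SEs are the log2 fold change over the square root of F. On simulated counts for SE 12 h vs control over the tested miRNAs, 75.0% of 2-fold and 97.5% of 4-fold rises were called. Falls to 0.5 and 0.25 of the level were called in 68.4 and 94.3%. The simulation gave every miRNA the same spread and left only 273 unchanged, so these rates cannot be read as the power for members here. Alternatives covered scaling, filter, DESeq2 1.42.0 and leaving out each library. Members were named by rule: both arms of miR-127, miR-431 and miR-134, the 6 most abundant, up to 4 called per direction and comparison, the first and last by position, and 3 hairpins each by summed counts and by arm difference. Shares were compared by exact permutation with SciPy 1.17.1; shares and floors cover counting error only. Members with similar sequences, such as miR-300-3p and miR-381-3p, may share tags.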

Additional observations from a re-analysis of the deposited data

Results flagged for a closer look

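Several members differed between times after status epilepticus by the test of the difference itself. miR-431-5p was higher at SE 6 wk than at SE 10 d by a log2 fold change of 1.13 and than at SE 12 h by 1.24, with both SE 6 wk libraries above all others. miR-540-3p was higher at SE 6 wk than at SE 12 h by 0.64. Lower at SE 6 wk than at SE 12 h were miR-376b-5p (−0.78), miR-380-3p (−0.60), miR-434-3p (−0.58), miR-127-5p (−0.57) and miR-434-5p (−0.40). Because both groups in each of these comparisons come from animals after status epilepticus, they do not say how either time stood against control.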

How the results depend on the processing

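No called result changed sign; the uncalled difference in share at SE 12 h did, without control library 8. Calls of miR-431-5p at SE 6 wk over control and over SE 12 h held under all 15 alternatives. The share of tags without miR-127-3p differed from control by −0.149 points at SE 10 d and −0.437 at SE 6 wk. At SE 12 h both libraries lay above both control libraries in that share. With a library left out the full share differed by −0.436 to 1.14 points at SE 12 h. It differed by −3.18 to −1.60 points at SE 10 d and −3.71 to −2.10 at SE 6 wk. Members called at SE 12 h were 2 with library totals and 2 without a filter (miR-379-5p and miR-380-3p), 1 with DESeq2 and 0 to 1 with a library left out. At SE 10 d 1 member was called with library totals, without a filter and with DESeq2, and 0 to 1 with a library left out. At SE 6 wk 1 was called with library totals, 7 with TMM computed without the members, 5 at a mean CPM of at least 10 and 1 to 4 with a library left out. Between SE 10 d and SE 12 h 1 was called without a filter (0 to 1 with a library left out), between SE 6 wk and SE 10 d 3 without a filter and 2 with DESeq2 (0 to 1), and between SE 6 wk and SE 12 h 1 to 9 with a library left out. Over all 4 groups 7 were called with TMM without the members, 6 without a filter, 5 with DESeq2 and 2 to 6 with a library left out. The share called over all miRNAs is not given here for each alternative, so these counts do not show a change particular to the cluster. The cause of these shifts was not tested, and a group left with 1 library is assumed to vary like the others. Among members with a mean CPM of at least 10, the medians at SE 12 h were −0.0020 in the proximal and −0.017 in the distal block, with a rho of 0.026. With blocks split at gaps over 10 kb, the proximal parts had medians of −0.03 and 0.07 at SE 12 h. Rows of a miRNA name did not differ, so that alternative was not run. No paired analysis was possible because the count columns carry no replicate letter of the labels. With 2 libraries a group, and 545672 tags in the shallowest, changes of low members may go undetected.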
